A study of Mus musculus with 2 samples.

Results

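Mir335, Mir483, Mir675, Mir298 and Mir296 are microRNA genes at the imprinted loci of Mest, Igf2, H19 and Gnas. They were taken by gene symbol from the 2202 microRNA genes that were counted, and all 5 were found in the GENCODE M21 annotation and in both libraries. The selection rule uses gene names alone, but the genes were chosen for description with earlier results of these data known. Per the labels, the libraries hold short RNA, with inserts under 30 nt, from calf muscle (gastrocnemius) of male B6CASTF1/J mice, a first-generation hybrid of the C57BL/6 and CAST strains, taken at 4 days of age. There is 1 group of 2 libraries, called replicate 1 and replicate 2 as in their labels, from animals numbered 3 and 4. The labels give them separate biosamples under a shared donor identifier, and do not settle how independent the libraries are. They give no treatment and no second genotype. The 5 genes can therefore be described in each library and compared between the 2.

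At an imprinted locus, a gene is read mainly from the chromosome of 1 parent. Igf2, a fetal growth factor, and Mest are known to be expressed from the paternal chromosome, and H19, a noncoding RNA next to Igf2, from the maternal one. Gnas, which encodes the stimulatory G protein alpha subunit, has several promoters that differ in their parental origin. A microRNA is cut from a hairpin in a longer transcript into arms named 5p and 3p, and its seed, bases 2 to 8 counted from the 5′ end, pairs with target messages. The deposited counts are per hairpin gene, so neither the arm nor the parental chromosome of a read is known here.

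The mature sequences follow, 5′ to 3′ with the seed in capitals, because the seed is the part that pairs with targets. They are RefSeq sequences of the GRCm38.p6 build, and all 5 genes and 10 arms were matched.
mmu-miR-335-5p: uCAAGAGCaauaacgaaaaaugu
mmu-miR-335-3p: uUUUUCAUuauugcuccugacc
mmu-miR-483-5p: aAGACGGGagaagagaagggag
mmu-miR-483-3p: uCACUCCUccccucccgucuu
mmu-miR-675-5p: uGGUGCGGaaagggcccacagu
mmu-miR-675-3p: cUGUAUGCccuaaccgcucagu
mmu-miR-298-5p: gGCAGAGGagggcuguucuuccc
mmu-miR-298-3p: gAGGAACUagccuucucucagcuu
mmu-miR-296-5p: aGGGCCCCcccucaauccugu
mmu-miR-296-3p: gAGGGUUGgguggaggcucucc

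The 10 arms had 10 different seeds, and none of these seeds occurred in another of the 1679 mature microRNAs of the RefSeq table. Over bases 2 to 7 alone, 4 arms had 1 partner each. The partners were miR-7646-5p for miR-335-5p, miR-6986-3p for miR-335-3p, miR-3110-3p for miR-483-3p and miR-5621-3p for miR-296-5p. The genes of these partners had 0 to 3 reads in either library. The Mest microRNA stood apart in base composition, with 30.4% and 36.4% G and C in its 5p and 3p arms. The arms of the other 4 genes had 50.0% to 68.2%, against a median of 52.2% over the table. No hairpin of the 5 genes shared a stretch of 22 nt with another hairpin in the table, on either strand. Sharing with the rest of the genome was not tested.

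Depth and the labelled tissue bear on every value below. Replicate 1 had 4458853 sense reads assigned to microRNA genes, and replicate 2 had 3073086. Mir206, which defines skeletal muscle, had 652657 reads in replicate 1 against 101 in replicate 2. Mir208a, restricted to heart, had 59 and 29718. Both values go against the tissue label of replicate 2, which may be wrong. Library names follow the labels here, and each ratio below may compare 2 tissues. The 11 skeletal muscle markers together held 14.7% of replicate 1 and 0.479% of replicate 2, and Mir206 made up nearly all of the first sum. Without Mir206 the other 10 held 0.0907% and 0.476%. Most of that came from Mir499 (1953 and 8633 reads) and Mir208b (1068 and 4340 reads). Whether the listed markers are particular to skeletal muscle was not tested, so these sums do not separate it from heart or other tissues. The Mir1a and Mir133a genes have several copies, and their reads that map to several places are missing. Neither sum therefore measures all muscle microRNA. Of 8 muscle markers tested, 3 were higher in replicate 2 (Mir499, Mir208b and Mir486) and 3 were lower (Mir133a-1, Mir133b and Mir206). Fibroblast markers were lower in replicate 2 (3 of 3 tested, 0.591% and 0.281% of reads) and so were 3 of 4 tested neural markers (0.142% and 0.0426%). The remaining neural marker tested, Mir219a-1, was higher (8 and 25 reads). Red blood cell markers were higher (2 of 2, 0.0220% and 0.0979%), as were 3 of 5 white blood cell markers, with 1 lower (0.0793% and 0.429%). Endothelial (2.54% and 6.62%) and smooth muscle markers (2.17% and 4.90%) had larger shares in replicate 2 but no call by the rule below. Their log2 ratios were 0.75 for Mir126a, 0.54 for Mir143 and 0.88 for Mir145a, under the threshold of 1. That depends on the scaling between libraries, and marker calls under other scalings are not given here. Of 7 epithelial markers, 3 were higher (0.0223% and 0.0587%). Of 46 annotated marker genes, 8 had no reads in either library: Mir133c, Mir145b, and the Mir9 and Mir124a genes. Mir9 and Mir124a each have several gene copies, and reads that map to several places are missing from these counts. Their 0 counts therefore do not show absence. The called markers went in both directions between the libraries, and their part in the results below was not tested. Fewer cells of a type and less RNA per cell cannot be told apart in such tissue libraries.

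The 5 imprinted microRNAs were all lower in replicate 2. Together they had 209841 reads in replicate 1, which is 4.71% of its microRNA reads (95% interval 4.69 to 4.73%), and 21384 in replicate 2, which is 0.696% (0.687 to 0.705%). Their log2 ratios of replicate 2 over replicate 1 ran from −5.01 to −2.07, with a median of −3.36, while the median over all 410 genes tested was −0.33. The ratios are relative to effective library sizes by the trimmed mean of M values (TMM), with a prior count of 1, and genes with at least 10 reads in total were tested. A gene was called if its log2 ratio was at least 1 in size and its adjusted p was under 0.05 in the exact binomial test of its reads, with Benjamini-Hochberg adjustment. By this rule 5 of 5 imprinted microRNAs were lower, against 36.1% of all genes tested (148 of 410) and 26.2% of those outside the Dlk1-Dio3 imprinted domain (93 of 355). None of the 5 was higher, against 17.6% of all genes tested, and 53.7% of all genes were called in either direction. The test compares 2 libraries and covers counting error only. When the spread was estimated from the same pair, 0 of 410 genes were called by the edgeR exact test (28 with an unadjusted p under 0.05), and the unadjusted p of the 5 genes ran from 0.0992 to 0.446.

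**Figure D1:**
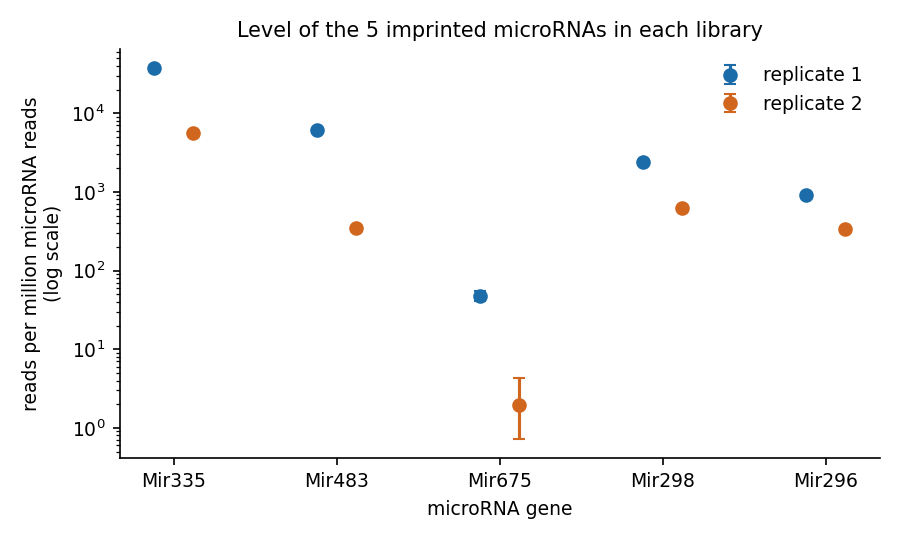
Level in CPM, counts scaled to a library's assigned microRNA reads (log scale), for the 5 genes, 1 point per library, with exact 95% counting intervals that are mostly smaller than the points. The replicate 2 point lies below the replicate 1 point for each gene, from 2.72 times lower for Mir296 to 24.2 times lower for Mir675.

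Mir335 was the most abundant of the 5 genes in both libraries. It lies in an intron of Mest, on the same strand (mm10 chromosome 6, 30741299 to 30741396), and is widely studied as a suppressor of metastasis. It had 167500 reads in replicate 1 and 17375 in replicate 2. As counts per 1000000 assigned microRNA reads (CPM), these are 37566 (95% interval 37389 to 37743) and 5654 (5570 to 5738). Mir335 thus ranked at 7 of 2202 genes in replicate 1 and at 28 in replicate 2. Ranks by level count assigned reads alone, without reads that map to several places. Its log2 ratio was −3.36 (−3.38 to −3.34), or 10.3-fold lower relative to TMM sizes, which placed it 74th from the lowest of 410 genes. It made up 79.8% of the reads of the 5 genes in replicate 1 and 81.3% in replicate 2, so it sets their summed share.

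The Igf2 and H19 microRNAs had the lowest ratios. Mir483 lies in an intron of Igf2, on the same strand (chromosome 7, 142654924 to 142654996), an intron shared with the overlapping gene model Gm49394. It had 27493 reads in replicate 1 and 1066 in replicate 2, which are 6166 CPM (6093 to 6239) and 347 CPM (326 to 368). Its log2 ratio was −4.78 (−4.87 to −4.69), or 27.4-fold lower relative to TMM sizes, and its rank went from 32 to 100.

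Mir675 is cut from an exon of H19 itself (chromosome 7, 142577064 to 142577147), 77.8 kb from Mir483 and on the same strand. In skeletal muscle its arms have been reported to promote differentiation of muscle precursor cells. It was the scarcest of the 5 genes, with 211 reads in replicate 1 and 6 in replicate 2, which are 47.3 CPM (41.2 to 54.2) and 1.95 CPM (0.717 to 4.25). Its log2 ratio of −5.01 had the widest interval (−6.69 to −4.08), and its adjusted p was 2.85e-57 in the binomial test with Benjamini-Hochberg adjustment. With 6 reads, the fold difference relative to TMM sizes is known only to lie between 16.9 and 103 within counting error. Scaling by total reads gave a log2 ratio of −4.38 (−6.06 to −3.45). The limit that a count of 0 allows, 3 counts, is 0.976 CPM in replicate 2, against the measured 1.95 CPM.

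The pair at the Gnas locus differed least between the libraries. Mir298 (chromosome 2, 174267504 to 174267585) and Mir296 (174267047 to 174267125) lie on the minus strand, 0.379 kb apart. In GENCODE M21 neither overlaps another gene. Mir298 lies 13.7 kb beyond the annotated 3′ end of Nespas, the antisense transcript of the locus, and 16.7 kb from Gnas, which is on the plus strand. Mir298, studied as a regulator of the beta-secretase Bace1, had 10563 reads in replicate 1 and 1903 in replicate 2, which are 2369 CPM (2324 to 2415) and 619 CPM (592 to 648). Its log2 ratio was −2.56 (−2.63 to −2.49), or 5.90-fold lower relative to TMM sizes.

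Mir296, known for a role in blood vessel growth, had 4074 reads in replicate 1 and 1034 in replicate 2. These are 914 CPM (886 to 942) and 336 CPM (316 to 358). Its log2 ratio was −2.07 (−2.17 to −1.97), or 4.19-fold lower relative to TMM sizes, the smallest difference of the 5 genes. It ranked 104th from the lowest of the 410 genes tested.

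The order of the 5 genes changed in 1 place. In replicate 1 the order of levels was Mir335, Mir483, Mir298, Mir296 and Mir675, with no overlap of neighbouring intervals. In replicate 2 Mir298 came second, and Mir483 and Mir296 followed with overlapping intervals (326 to 368 and 316 to 358 CPM). The annotated mature arms are all 21 to 24 nt long, and levels were not divided by length. Read lengths are not in the tables used here. Ranks in 1 library can also depend on how well each sequence is captured, which was not tested.

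Read ratios between the genes within a library do not depend on how the libraries are scaled, so they were compared directly. All 10 pairs were tested with a two-sided Fisher exact test, again covering counting error only. Of these, 9 differed between the libraries at an adjusted p under 0.05 (Benjamini-Hochberg over the 10 pairs). Pairs of other genes were not tested, and 53.7% of all genes tested singly were called in either direction. The count of 9 therefore has no background and shows nothing particular to these genes. Mir483 reads were 2.60 times those of Mir298 in replicate 1 and 0.560 times in replicate 2, a 4.65-fold difference (95% interval 4.29 to 5.03). Mir483 reads were 6.75 times those of Mir296 in replicate 1 and 1.03 times in replicate 2, a 6.55-fold difference (5.97 to 7.18). The Igf2 microRNA thus differed more between the libraries than either Gnas microRNA.

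Mir675 also differed more than the Gnas pair, by 6.34-fold relative to Mir298 (2.86 to 17.5) and 8.93-fold relative to Mir296 (4.02 to 24.7). Mir335 lay between these loci. Its ratio to Mir483 was 6.09 in replicate 1 and 16.3 in replicate 2 (quotient 0.374, 0.351 to 0.398), and its ratio to Mir296 was 41.1 and 16.8 (quotient 2.45, 2.28 to 2.62). Relative to Mir298 the quotient for Mir335 was 1.74 (1.65 to 1.83), and relative to Mir675 it was 0.274 (0.0995 to 0.607).

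Within a locus the ratios were closer. Mir483 reads were 130 times those of Mir675 in replicate 1 and 178 times in replicate 2, a quotient of 0.733. Its interval of 0.266 to 1.63 includes no difference (Fisher exact adjusted p = 0.589) but also allows a difference of over 3-fold, since Mir675 had 6 reads in replicate 2. Mir298 reads were 2.59 times those of Mir296 in replicate 1 and 1.84 times in replicate 2. That quotient of 1.41 (1.29 to 1.53) was beyond counting error (Fisher exact adjusted p = 4.12e-15), although the hairpins are neighbours on 1 strand. As shares of the reads of the 5 genes, Igf2 and H19 together took 13.2% of replicate 1 and 5.01% of replicate 2, and the Gnas pair took 6.98% and 13.7%.

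**Figure D2:**
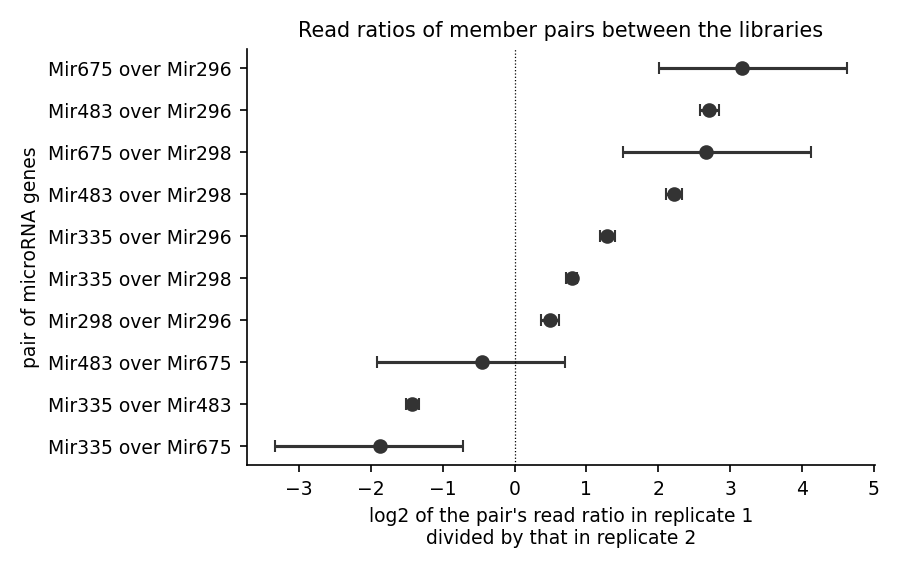
Log2 of the read ratio of each pair of genes in replicate 1 divided by that in replicate 2, with 95% counting intervals, for the 10 pairs. Values right of 0 mean that the first gene of the pair was more strongly reduced in replicate 2. Mir483 over Mir675 is the pair whose interval spans 0, and Mir675 over Mir296 lies farthest right at 3.16.

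Scaling moved the sizes of the differences but not their calls. The log2 ratio of Mir335 was −3.08 with DESeq2 size factors, −2.73 with total reads and −3.49 with TMM sizes from genes outside the Dlk1-Dio3 domain. For Mir296, the gene nearest to the threshold, these values were −1.79, −1.44 and −2.20. All 5 genes stayed lower under each of these scalings. DESeq2 size factors put the median of all tested genes at −0.05 and total reads put it at 0.29. Of all calls, 32.7% were higher with TMM sizes, 44.3% by DESeq2 size factors and 54.0% by total reads. The Dlk1-Dio3 microRNAs took 32.9% of replicate 1 and 0.973% of replicate 2. With that domain left out of the denominator, Mir335 held 5.60% of replicate 1 and 0.571% of replicate 2, and Mir296 held 0.136% and 0.0340%.

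**Figure D3:**
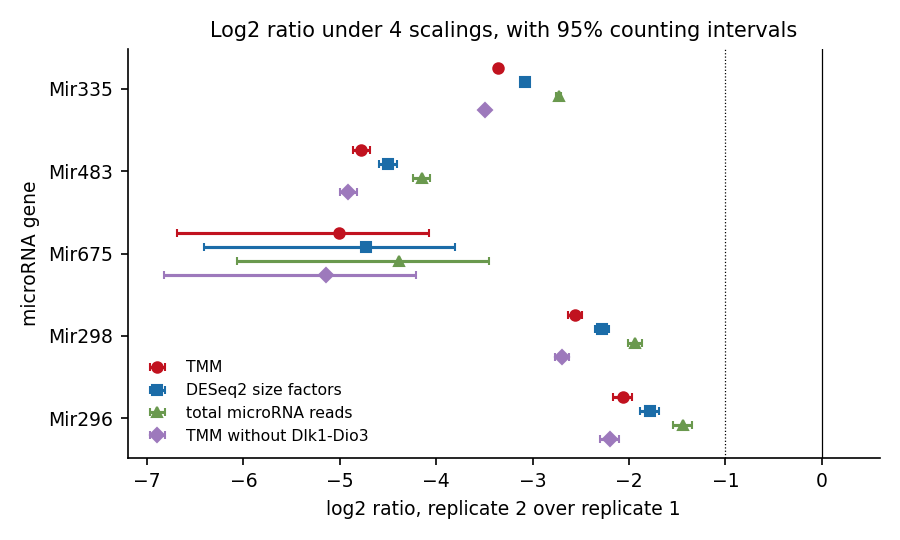
Log2 ratio of replicate 2 over replicate 1 for each gene under 4 scalings, with 95% counting intervals. The solid line marks 0 and the dotted line the threshold of −1. Each point lies left of the threshold, and Mir296 comes nearest with −1.44 under total reads.

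The 5 genes were set beside other microRNAs at loci known as imprinted, which have separate control regions. These were taken by position inside the domain or a listed gene, and parent-specific expression of each was not tested. The expressed parental chromosome is not the same at all these loci. In the Dlk1-Dio3 domain on chromosome 12, 55 of 67 annotated genes had enough reads, and 55 of 55 were lower. The domain's median was −5.98, or −5.95 with 7 genes without reads in a library set at 3 counts. Mir127 (−5.29), Mir411 (−5.78) and Mir487b (−7.87) had the highest mean share of it, an order that replicate 1 decides. Mir487b had 174719 reads there but 795 in replicate 2, below the 3308 of Mir379. The ratio of Mir335 lay above these, and Mir483 and Mir675 lay inside the domain's range of −9.54 to −2.79, as did Mir335. Mir298 and Mir296 lay above that range.

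The Sfmbt2 cluster on chromosome 2, a rodent-specific array inside an imprinted gene, had ratios nearer to 0. Of its 119 annotated genes, 8 were tested and 4 were lower, with a median of −0.95. Mir467d had 2359 and 3059 reads and no call at 0.29, and Mir467e and Mir669o were lower at −1.11 each. Its lower calls numbered 2 when scaled by DESeq2 size factors and 0 by total reads. Many of its genes are near-identical copies, so reads mapping to several places are missing from these counts.

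Inside the other imprinted genes of the list, 4 microRNA genes were annotated and 2 were tested, both lower. Mir3099, inside Usp29, which lies next to the imprinted gene Peg3, had 318 reads in replicate 1 and 10 in replicate 2, a log2 ratio of −4.95 (−6.15 to −4.18). Mir653, inside the calcitonin receptor gene Calcr, had 34 and 0 reads. Its neighbour Mir489 had 4 and 0 reads, too few to test.

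**Figure D4:**
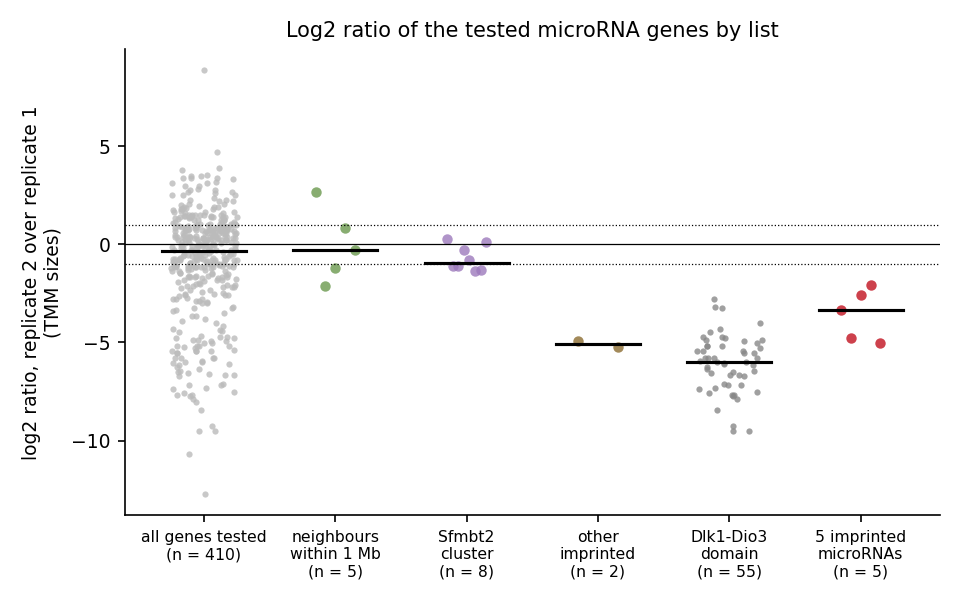
Log2 ratio of replicate 2 over replicate 1 (TMM sizes) for the tested genes of each list, 1 point per gene, with the median as a bar and dotted lines at −1 and 1. The 5 imprinted microRNAs lie between −5.01 and −2.07, below the median of −0.33 of all 410 genes, and the neighbours within 1 Mb spread on both sides of 0. The points of genes without reads in a library, Mir653 among them, depend on the prior count.

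The microRNA genes nearest to the 5 on the chromosome were called about as often as genes at large. Within 1 Mb there were 11 other microRNA genes, of which 5 were tested, 2 were lower and 1 was higher, beside 36.1% lower and 17.6% higher over all genes tested. Their median of −0.31 was also near the −0.33 of all genes, so the counts show nothing particular to these neighbours. On chromosome 6, Mir29a, a repressor of collagen genes, lies 321 kb from Mir335 and had 336 reads in replicate 1 and 2316 in replicate 2, a log2 ratio of 2.69 (2.53 to 2.86). Mir29b-1 beside it had 11 and 22 reads and no call at 0.85. On the other side, the sensory organ microRNAs Mir182 (185 and 44 reads) and Mir183 (109 and 49 reads) were lower, at −2.14 and −1.23. Scaled by DESeq2 size factors or by total reads, Mir183 lost its call and Mir29b-1 gained one, which made 1 lower and 2 higher.

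Around Igf2 and H19, Mir7063 was the only other gene tested, with 6 and 5 reads and a log2 ratio of −0.31 (−2.40 to 1.62). Mir3104 there had no reads and Mir7064 had 6 and 1. Around Mir296 and Mir298, the annotated microRNA genes Mir6340 and Gm27591 had no reads in either library, which allows up to 0.673 CPM in replicate 1 and 0.976 CPM in replicate 2. Mir296 and Mir298 were thus the only microRNA genes with reads within 1 Mb of that locus.

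The genes closest in level to each of the 5 over the 2 libraries were found by Euclidean distance of log2 CPM relative to TMM sizes. Mir483 had the nearest partners, Mir337 (30932 and 1195 reads, distance 0.24) and Mir434 (39635 and 911 reads, distance 0.57), both of the Dlk1-Dio3 domain. Mir298 was nearest to Mir154 of the same domain (13106 and 1447 reads, distance 0.50) and to the X-linked Mir542 (7323 and 3189 reads, distance 0.91). Mir296 was nearest to Mir128-1 (3180 and 783 reads, distance 0.54) and Mir148a (2740 and 1071 reads, distance 0.57). Mir675 was nearest to Mir6944 (156 and 10 reads, distance 0.78) and Mir3099 (318 and 10 reads, distance 0.88). Mir335 had no close partner, with Mir127 at 1.43 and Mir322 at 1.68. With 2 libraries this likeness describes levels and says nothing of shared control.

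Strand gave no second signal at these genes. Mir335 had 1 antisense read in replicate 1 and 0 in replicate 2, and the other 4 genes had 0 antisense reads in both libraries. Their unstranded counts equalled the sense counts, and for Mir335 the unstranded count in replicate 1 was 167501. Over all genes the antisense column held 537732 reads in replicate 1 and 865058 in replicate 2, so the 5 genes took almost no part in it.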

How the data were processed

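The authors deposited a table of raw counts per library, with unstranded, sense and antisense reads of each microRNA gene, on mm10 with GENCODE M21 per the file headers. Aligner and trimming: not given in the sources used here. The lines follow STAR's gene count layout, where reads that map to several places are not assigned to genes (35.7% of reads in replicate 1 and 45.1% in replicate 2). The 4 summary lines stayed out of library sizes. They also held 9.97% and 8.60% unmapped reads, 2.05% and 3.83% outside annotated microRNA genes and 0 ambiguous reads. Depth was 8522350 and 7240126 reads, of which 52.3% and 42.4% were assigned on the sense strand.

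All 2202 gene IDs were matched to GENCODE M21. Sense counts were used. CPM and shares are relative to assigned sense reads, with exact Clopper-Pearson 95% intervals. The floor for a count of 0 was 3 counts. The sources name no molecular identifiers, so intervals and floors cover counting error only. Log2 ratios used a prior count of 1 and TMM sizes from genes with at least 10 reads in total, in edgeR 4.0.16 under R 4.3.3, and ratio intervals are Clopper-Pearson. The binomial test was tried on simulated data with known changes. Alternatives were DESeq2 1.42.0 size factors, total reads, TMM without the Dlk1-Dio3 domain, the unstranded column, other prior and minimum counts, the edgeR exact test with the dispersion of the pair, other denominators and each library alone.

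Genes named were the 5 microRNAs, the 2 nearest in level to each with at least 100 reads, tested neighbours within 1 Mb and up to 3 genes of each imprinted list by mean share. Untested neighbours, Mir206, Mir208a, the other single cell type markers, Mir379 and Mir489 were named after their values were seen. The list of imprinted genes held 64 symbols, of which 63 were in the annotation. The genes and lists were chosen with earlier results of these data known. The labels give the libraries separate biosamples under a shared donor identifier. Tests and intervals were computed with scipy 1.17.1 under Python 3.11.15.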

Additional observations from a re-analysis of the deposited data

How the results depend on the processing

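All 5 genes were lower in replicate 2, with the call kept, under DESeq2 size factors, total reads, TMM sizes without the Dlk1-Dio3 domain, the unstranded column, a prior count of 5, no minimum count and a minimum of 100 reads. Over these alternatives the log2 ratio ran from −3.49 to −2.73 for Mir335, −4.91 to −4.15 for Mir483, −5.14 to −4.38 for Mir675, −2.70 to −1.94 for Mir298 and −2.20 to −1.44 for Mir296. With the edgeR exact test and the dispersion of the pair (1.23), the values were −3.36 for Mir335, −4.78 for Mir483, −5.00 for Mir675, −2.56 for Mir298 and −2.07 for Mir296, and no call held. The adjusted p was 0.752 for Mir483 and Mir675 and 1 for the other 3. That test called 0 genes higher and 0 lower of 410, and 0 in each list, where the binomial test gave 148 lower and 72 higher. Its dispersion was estimated from the pair under test. The other counts that moved were 135 genes higher with total reads and 45 with at least 100 reads, where fewer genes were tested (266). In the Sfmbt2 cluster 2 genes were lower with DESeq2 size factors and with the unstranded column, and 0 with total reads. Among the neighbours 1 was lower and 2 were higher under DESeq2 size factors or total reads. Of the other imprinted genes, 1 was lower with at least 100 reads. The mean share of Mir335 was 2.16%, and became 1.10% over all reads in the column and 3.09% without the Dlk1-Dio3 domain. It was 0.565% without replicate 1 and 3.76% without replicate 2. The shares of the other 4 genes moved likewise, each by less than 1 SD of the pair. Leaving out 1 of 2 libraries always shifts the mean by less than that SD, so this is no check of stability. The mean share of Mir483, for example, was 0.326%, but 0.0347% without replicate 1 and 0.617% without replicate 2. The alternatives for the pair quotients changed 1 read of Mir335 in all, so they give no check of those quotients. A library cannot be left out of a ratio of 2. Mir675, with 6 reads in replicate 2, is the gene whose values depth limits most. No paired analysis was possible because there is 1 group.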
